A study of Mus musculus with 6 samples.

Results

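The genes described are 40 cell cycle and proliferation genes, chosen by name and found in the deposited expression table of 18939 mouse genes under their own symbols. All 40 were found, of which 17 were classed with DNA synthesis (S phase), 22 with mitosis and 1, Ccnd1, with G1, although some also act in other phases. They were measured in 3 libraries titled CKO (replicates 1, 2 and 5), from skin of mice in which VAMP7, a vesicle fusion protein, is deleted in basophils, and 3 titled FLOX (replicates 2, 3 and 5), whose genotype label is wild type. Poly(A)-selected RNA of whole skin was sequenced, and the series title refers to MC903-OVA, a model in which the vitamin D analogue calcipotriol and the antigen ovalbumin bring about skin inflammation resembling atopic dermatitis. No label gives the animals' age or strain, the promoter that drives the deletion, the body site, or whether each library is 1 animal. The comparison asks whether transcripts of dividing cells in the skin differ when basophils lack VAMP7.

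Cells copy their DNA in S phase and part the copies in mitosis. Replication origins are licensed in G1 by loading the MCM helicase, cyclin-dependent kinases then fire the origins and drive entry into mitosis, and the anaphase-promoting complex ends mitosis by destroying cyclins. S-phase genes are driven largely by E2F factors. Mitotic genes are repressed in resting cells by the DREAM complex and switched on by MYBL2 and FOXM1, through promoter elements known as CHR. Many mitotic gene promoters also hold CCAAT boxes. In skin the dividing cells are mainly basal keratinocytes and growing hair follicles, and in inflamed skin also infiltrating lymphocytes and some macrophages.

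Promoter letters of both classes are shown because the classes are known to be driven through different elements. RefSeq promoter windows (GRCm38.p6, 250 bases before to 50 after the start) were given for 31 of the 40 genes. Windows are printed for the 2 genes of each class with the smallest p in the comparison of CKO with FLOX among those with a window, 5' to 3' on the gene's strand. Expression thus chose which windows are shown, while the counts that follow cover all 31. Capitals mark CCAAT, the CHR letters TTTGAA or TTCGAA, and the E2F letters GCGGGAA, TTTGGCGC or TTTCGCGC, each searched on both strands. Mcm5 lies at chr8:75109259-75109558 and Rrm2 at chr12:24708004-24708303, both on the forward strand, and Mki67 lies at chr7:135716330-135716629 and Cdk1 at chr10:69352863-69353162, both on the reverse strand.
Mcm5: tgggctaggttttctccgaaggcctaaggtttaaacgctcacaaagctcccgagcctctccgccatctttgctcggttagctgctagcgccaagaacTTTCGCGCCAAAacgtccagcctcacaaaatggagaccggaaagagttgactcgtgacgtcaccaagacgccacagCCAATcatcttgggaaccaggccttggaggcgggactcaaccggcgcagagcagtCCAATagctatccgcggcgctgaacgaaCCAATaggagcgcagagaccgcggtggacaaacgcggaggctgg
Rrm2: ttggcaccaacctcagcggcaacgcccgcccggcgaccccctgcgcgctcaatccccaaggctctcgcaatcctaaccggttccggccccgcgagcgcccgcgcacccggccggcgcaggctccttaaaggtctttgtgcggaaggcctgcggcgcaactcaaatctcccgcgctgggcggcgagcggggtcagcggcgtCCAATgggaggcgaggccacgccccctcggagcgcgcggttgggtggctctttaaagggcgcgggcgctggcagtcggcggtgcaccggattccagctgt
Mki67: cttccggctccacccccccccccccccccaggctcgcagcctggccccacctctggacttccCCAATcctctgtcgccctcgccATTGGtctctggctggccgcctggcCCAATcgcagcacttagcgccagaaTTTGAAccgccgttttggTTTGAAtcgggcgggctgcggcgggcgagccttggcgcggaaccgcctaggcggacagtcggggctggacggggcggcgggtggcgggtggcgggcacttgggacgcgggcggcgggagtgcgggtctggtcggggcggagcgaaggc
Cdk1: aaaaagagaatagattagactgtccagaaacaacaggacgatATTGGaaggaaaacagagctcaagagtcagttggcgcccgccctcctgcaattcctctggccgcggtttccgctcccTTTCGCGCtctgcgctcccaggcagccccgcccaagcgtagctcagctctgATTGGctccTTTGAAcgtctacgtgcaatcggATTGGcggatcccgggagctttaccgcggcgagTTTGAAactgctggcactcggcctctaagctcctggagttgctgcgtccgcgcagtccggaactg

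Of 17 mitotic genes with a window, 13 held CHR letters, 15 held CCAAT and 1, Cdk1, held E2F letters. Of 14 S-phase genes with a window, 2 held CHR letters, 8 held CCAAT and 7 held E2F letters. Among all 27025 genes of the promoter table, 19.4% held CHR letters, 37.9% CCAAT and 5.40% E2F letters. In the windows printed, Mki67 and Cdk1 each held TTTGAA 2 times, Mcm5 held 2 overlapping E2F matches, and Rrm2 held 1 CCAAT and neither of the other kinds. A match describes the letters in these windows and does not show that a factor binds there.

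None of the 40 genes passed the test between CKO and FLOX skin. The values are FPKM, fragments mapped to a gene scaled by its length and by the library's total, and differences are on the log2(FPKM + 1) scale, CKO minus FLOX, which understates the change of low genes. With limma and Benjamini-Hochberg adjustment over all 12994 tested genes, 0 of 40 passed at 0.05, and the smallest adjusted p was 0.117, for Mki67. Over all tested genes 0.954% passed, 0.354% as higher and 0.600% as lower in CKO. At an unadjusted p under 0.05 there were 3 of the 40, Mki67 and Foxm1 with lower values and Ccnd1 with higher values in CKO, against 21.6% of all tested genes (8.94% lower and 12.6% higher). The 3 CKO values lay apart from the 3 FLOX values for the same 3 genes, against 27.0% of all tested genes (11.4% lower and 15.5% higher). All 40 passed the filter of at least 1 FPKM in at least 3 libraries, Cdc6 only just, with 2 CKO libraries and 1 FLOX library above it.

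On the log2(FPKM + 1) scale the unadjusted 95% confidence intervals of all 40 genes lay between -0.64 and 0.53. For genes of low level the same interval spans a wider fold of FPKM itself. Fitted differences ran from -0.37 (Mki67) to 0.30 (Ccnd1), with a median standard error of 0.12. The median difference was 0.01 over the 17 S-phase genes and -0.13 over the 22 mitotic genes, beside 0.03 over all tested genes. Of the S-phase genes 9 had a positive and 8 a negative difference, and of the mitotic genes 2 had a positive and 20 a negative one. A p that misses the threshold does not show that the groups were alike, and the intervals give the range of differences on this scale. In bulk tissue, fewer dividing cells and less RNA per dividing cell cannot be told apart.

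**Figure D1:**
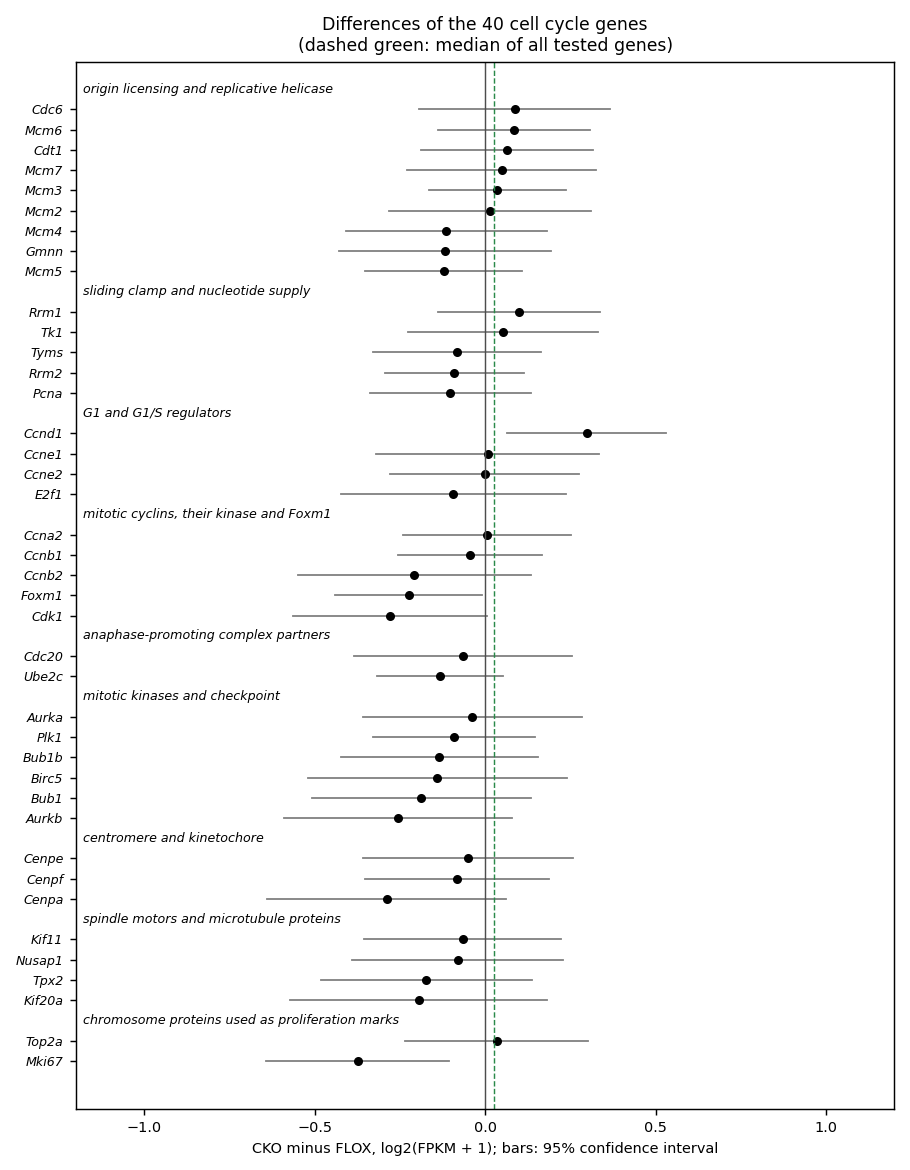
Difference of each of the 40 genes, CKO minus FLOX, on the log2(FPKM + 1) scale (horizontal axis), by role (rows); points are limma estimates, bars unadjusted 95% confidence intervals, and the dashed line the median of all tested genes (0.03). The intervals of 3 genes, Ccnd1, Foxm1 and Mki67, do not cross 0.

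FLOX replicate 3 had the highest value of the 6 libraries for 33 of the 40 genes (82.5%), including 21 of the 22 mitotic genes, whereas it was highest for 19.3% of all tested genes. CKO replicate 2 was lowest for 17 of the 40 (42.5%), beside 24.9% of all tested genes. Without FLOX replicate 3 the median of the mitotic genes was -0.02 and 14 of 22 were negative, and the median of the S-phase genes was 0.04. The values of the mitotic genes below carry this limit.

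**Figure D2:**
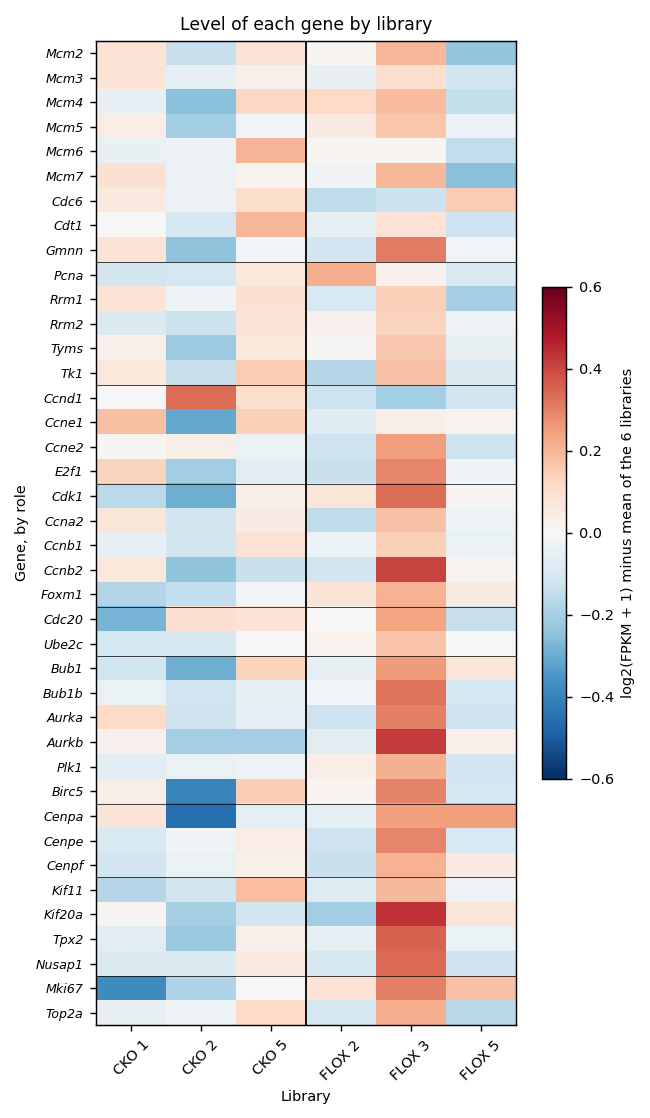
Level of each of the 40 genes (rows, by role) in each library (columns), as log2(FPKM + 1) minus the gene's mean over the 6 libraries. The FLOX 3 column is the highest in 33 rows, and CKO 2 is the lowest in 17.

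The S-phase genes as a class had a mean log2(FPKM + 1) of 3.59, 3.42 and 3.62 in CKO replicates 1, 2 and 5, and of 3.52, 3.69 and 3.46 in FLOX replicates 2, 3 and 5. The groups overlapped, at 3.54 ± 0.11 in CKO and 3.55 ± 0.12 in FLOX skin (SD, n = 3 each). The mitotic genes had class means of 3.18, 3.09 and 3.26 in CKO, and 3.195, 3.52 and 3.23 in FLOX libraries, or 3.18 ± 0.09 and 3.32 ± 0.18. These groups overlapped too, since CKO replicate 5 stood above FLOX replicates 2 and 5. Taking the S-phase mean from the mitotic mean within each library reduces any scaling common to both classes. With 1 added to FPKM before the log it does not remove such scaling fully. That difference was -0.41, -0.33 and -0.36 in CKO and -0.32, -0.16 and -0.23 in FLOX libraries, and the groups lay apart only narrowly. No test was made of these class values, since the genes were chosen with earlier results known.

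**Figure D3:**
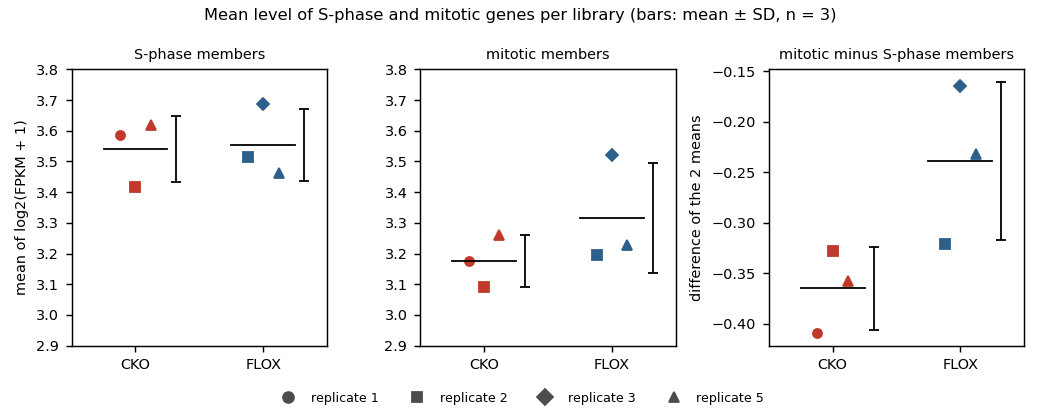
Mean log2(FPKM + 1) of the 17 S-phase genes and the 22 mitotic genes per library, and the mitotic mean minus the S-phase mean; points are libraries, lines means, and bars SD (n = 3). The mitotic class overlaps between groups, with FLOX replicate 3 at 3.52 above all others, and the third panel shows CKO at -0.41 to -0.33 and FLOX at -0.32 to -0.16.

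Per unit of gene length the 40 genes spanned a wide range of levels. Pcna, the sliding clamp that holds DNA polymerases on their template, was the most abundant at 121 FPKM over the 6 libraries, followed by Cenpa, the centromeric histone (37.9 FPKM), and Ube2c, the ubiquitin-conjugating enzyme of the anaphase-promoting complex (24.8 FPKM). Cdc6, which loads the MCM helicase, was the lowest at 0.965 FPKM, below Cenpf (1.76 FPKM) and Cenpe (1.93 FPKM), both of the outer kinetochore. Between these, 20 genes averaged 10 to 100 FPKM and 18 averaged 1 to 10 FPKM.

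The origin licensing and helicase genes were nearly level between the groups. The 6 MCM subunit genes, whose products form the hexameric replicative helicase, summed to 79.7, 72.2 and 83.0 FPKM in CKO and 79.0, 86.1 and 69.6 FPKM in FLOX libraries. Their group means were 78.3 ± 5.56 and 78.2 ± 8.25 FPKM, well within the spread. Mcm6 was the most abundant subunit, with 18.7, 18.9 and 22.4 FPKM in CKO and 19.5, 19.5 and 17.4 FPKM in FLOX libraries (difference 0.08, 95% interval -0.14 to 0.31).
Mcm5 had the smallest p of the class, with 11.0, 9.08 and 10.5 FPKM in CKO and 11.1, 12.1 and 10.4 FPKM in FLOX libraries (difference -0.12, SE 0.10, limma adjusted p = 0.526). Mcm4 measured 11.3, 9.74 and 12.9 FPKM in CKO and 12.8, 13.5 and 10.5 FPKM in FLOX libraries. Groups overlapped for both, as they did for Mcm2, Mcm3 and Mcm7, whose differences were 0.01 to 0.05. Gmnn, the inhibitor that blocks relicensing, measured 19.1, 15.2 and 17.9 FPKM in CKO and 16.6, 22.6 and 17.8 FPKM in FLOX libraries, and its target Cdt1, a licensing factor, differed by 0.06 (95% interval -0.19 to 0.31).

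The clamp and nucleotide supply genes gave intervals as narrow. Pcna measured 111.5, 111.9 and 126.2 FPKM in CKO and 140.3, 122.9 and 113.0 FPKM in FLOX libraries, with overlapping groups and a difference of -0.10 (95% interval -0.34 to 0.13). Rrm1 and Rrm2 encode the subunits of ribonucleotide reductase, which makes deoxynucleotides. Rrm1 measured 18.9, 17.4 and 18.9 FPKM in CKO and 16.6, 19.7 and 15.3 FPKM in FLOX libraries, a difference of 0.10, and Rrm2 measured 15.7, 15.2 and 17.7 FPKM in CKO and 17.0, 18.4 and 16.4 FPKM in FLOX libraries, a difference of -0.09. Their intervals were -0.14 to 0.34 and -0.29 to 0.11. Tyms, thymidylate synthase, and Tk1, thymidine kinase, differed by -0.08 and 0.05.

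Ccnd1, cyclin D1, which couples growth signals to entry into the cycle, was the one member with higher values in every CKO library. It measured 15.7, 20.0 and 16.9 FPKM in CKO and 14.2, 13.4 and 14.3 FPKM in FLOX libraries. The groups lay apart, with CKO replicate 2 well above the rest, and the mean was 25.1% higher in CKO (difference 0.30, SE 0.10, 95% interval 0.06 to 0.53). It did not pass over all genes (limma adjusted p = 0.145). By exact permutation of the libraries (two-sided) p was 0.1, and 3 libraries against 3 allow none smaller. Any gene whose groups lie apart gets this value, so it adds nothing to the separation itself. Skeletal muscle markers were also highest in CKO replicate 2. Their mean log2(FPKM + 1) was 5.63, 6.11 and 4.80 in CKO and 4.44, 4.18 and 3.37 in FLOX libraries. The means of basal keratinocyte, fibroblast and endothelial markers were highest in CKO replicate 2 as well, at 6.18, 7.81 and 4.08. The part of all these markers in the Ccnd1 values was not tested. The other D-type cyclins, which are not members, were at 17.3 ± 1.36 FPKM in CKO skin, against 15.2 ± 1.67 FPKM in FLOX skin, for Ccnd2 and at 47.5 ± 1.63 FPKM in CKO skin, against 49.0 ± 3.41 FPKM in FLOX skin, for Ccnd3 (SD, n = 3 each), and neither passed.

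The E-type cyclin genes, which act with CDK2 at the start of S phase, overlapped between groups. Ccne1 measured 4.72, 3.08 and 4.58 FPKM in CKO and 3.81, 4.19 and 4.13 FPKM in FLOX libraries, and Ccne2 differed by -0.00 with an interval of -0.28 to 0.28. E2f1, an activating E2F factor, measured 4.74, 3.53 and 4.02 FPKM in CKO and 3.77, 5.43 and 4.17 FPKM in FLOX libraries (difference -0.09, 95% interval -0.42 to 0.24). Groups overlapped for all of these.

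Among the mitotic genes the lowest difference was that of Mki67, which encodes the Ki-67 protein that coats mitotic chromosomes and is widely used as a mark of cycling cells. It measured 9.29, 10.8 and 12.4 FPKM in CKO and 13.2, 15.5 and 14.1 FPKM in FLOX libraries. Every CKO value lay below every FLOX value, the mean was 24.1% lower in CKO, and the difference was -0.37 (SE 0.11, 95% interval -0.64 to -0.11), which did not pass over all genes (limma adjusted p = 0.117). Exact two-sided permutation again gave its floor of p = 0.1, which is fixed once the groups lie apart. Top2a, the topoisomerase that untangles sister chromosomes and the other gene often read as a proliferation mark, did not share this order. It measured 15.6, 15.8 and 17.6 FPKM in CKO and 14.9, 18.9 and 14.3 FPKM in FLOX libraries, with overlapping groups and a difference of 0.03 (95% interval -0.23 to 0.30).

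Cdk1, the kinase that drives mitosis, and Foxm1, a transcription factor of mitotic genes, came next by p. Foxm1 measured 3.48, 3.57 and 4.00 FPKM in CKO and 4.33, 4.84 and 4.24 FPKM in FLOX libraries, groups that lay apart narrowly (difference -0.22, SE 0.09, limma adjusted p = 0.216). Cdk1 measured 7.99, 7.20 and 9.29 FPKM in CKO and 9.55, 11.7 and 9.14 FPKM in FLOX libraries, so that the highest CKO library stood above the lowest FLOX library (difference -0.28, 95% interval -0.56 to 0.01). Its cyclin partners were closer between groups. Ccnb1 measured 15.0, 14.3 and 16.6 FPKM in CKO and 15.1, 17.3 and 15.1 FPKM in FLOX libraries. Ccnb2 measured 12.8, 10.2 and 11.1 FPKM in CKO and 11.3, 16.5 and 12.4 FPKM in FLOX libraries, where FLOX replicate 3 alone stood high. Ccna2, cyclin A2, averaged 11.8 ± 0.87 FPKM in CKO skin, against 11.8 ± 1.47 FPKM in FLOX skin, with an interval of -0.24 to 0.25.

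The partners of the anaphase-promoting complex overlapped between groups. Ube2c measured 22.9, 23.1 and 24.8 FPKM in CKO and 25.2, 28.0 and 24.8 FPKM in FLOX libraries (difference -0.13, 95% interval -0.32 to 0.05). The highest CKO library of Ube2c stood level with the lowest FLOX library. Cdc20, its activator at the metaphase checkpoint, measured 11.2, 14.8 and 14.7 FPKM in CKO and 13.8, 16.5 and 12.4 FPKM in FLOX libraries, a difference of -0.06.

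All 6 mitotic kinase and checkpoint genes had negative differences, and none passed. Aurkb, the kinase of the chromosomal passenger complex, measured 6.16, 5.09 and 5.09 FPKM in CKO and 5.70, 8.41 and 6.18 FPKM in FLOX libraries (difference -0.26, SE 0.14, limma adjusted p = 0.351). Birc5, survivin, of the same complex, measured 19.3, 14.0 and 20.9 FPKM in CKO and 18.9, 23.3 and 17.4 FPKM in FLOX libraries. CKO replicates 1 and 5 stood above FLOX replicates 2 and 5 for Birc5, so its groups were mixed. The spindle checkpoint kinase gene Bub1 measured 2.28, 1.91 and 2.91 FPKM in CKO and 2.45, 3.26 and 2.75 FPKM in FLOX libraries. Its relative Bub1b measured 4.85, 4.53 and 4.82 FPKM in CKO and 4.93, 6.52 and 4.58 FPKM in FLOX libraries. Plk1, which acts from mitotic entry to cytokinesis, and Aurka, the centrosome kinase, differed by -0.09 and -0.04, and both had intervals that spanned 0.

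None of the 3 centromere and kinetochore genes and none of the 4 spindle genes passed, and all 7 differences were negative. Cenpa measured 39.6, 27.1 and 35.9 FPKM in CKO and 36.0, 44.5 and 44.6 FPKM in FLOX libraries, with CKO replicate 2 lowest (difference -0.29, 95% interval -0.64 to 0.06). Cenpf measured 1.54, 1.68 and 1.81 FPKM in CKO and 1.51, 2.18 and 1.85 FPKM in FLOX libraries, and Cenpe measured 1.73, 1.86 and 2.0 FPKM in CKO and 1.67, 2.56 and 1.73 FPKM in FLOX libraries. Kif20a, a kinesin of the central spindle, measured 5.40, 4.50 and 4.85 FPKM in CKO and 4.46, 7.53 and 5.64 FPKM in FLOX libraries, where FLOX replicate 2 was the lowest of all 6 and FLOX replicate 3 the highest. The spindle assembly factor gene Tpx2 measured 7.43, 6.57 and 8.03 FPKM in CKO and 7.49, 10.3 and 7.60 FPKM in FLOX libraries. Nusap1, a microtubule-bundling protein gene, measured 10.7, 10.8 and 11.9 FPKM in CKO and 10.7, 14.8 and 10.5 FPKM in FLOX libraries, and the motor gene Kif11 differed by -0.07.

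**Figure D4:**
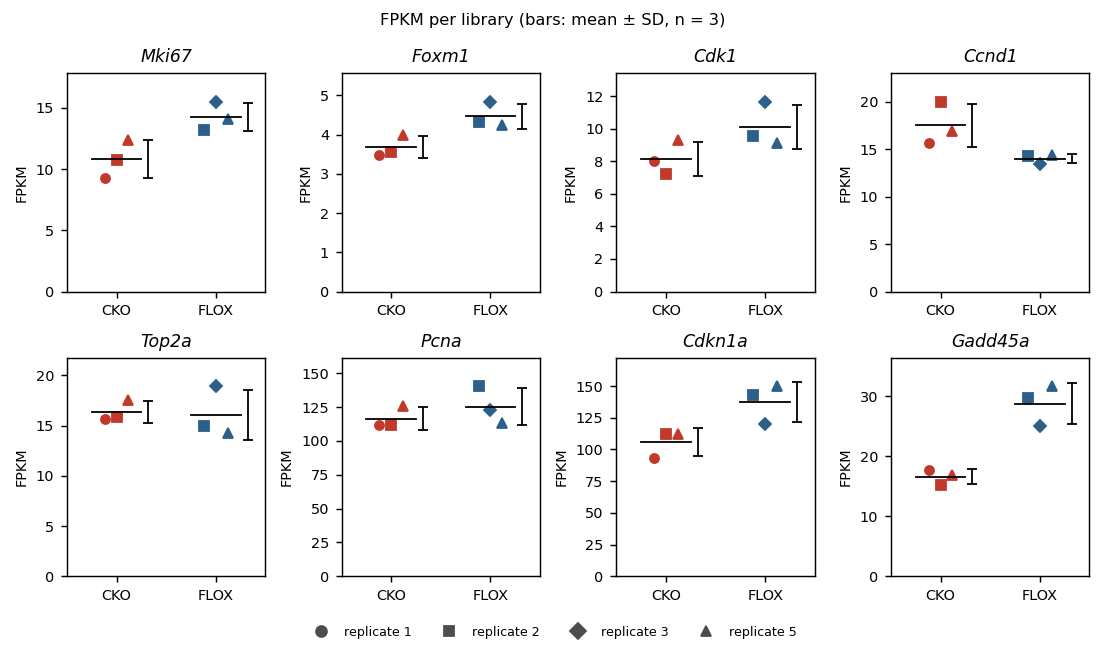
FPKM of 6 members (Mki67, Foxm1, Cdk1, Ccnd1, Top2a, Pcna) and 2 growth arrest genes (Cdkn1a, Gadd45a) per library; points are libraries, lines means, and bars SD (n = 3). Groups lie apart for Mki67, Foxm1, Ccnd1, Cdkn1a and Gadd45a and overlap for Cdk1, Top2a and Pcna.

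None of the other replication or mitosis genes passed either. Of 39 other DNA replication genes 38 were tested and 0 passed, with a median difference of -0.03. FLOX replicate 3 was highest for 23 of the 38 (60.5%), beside 19.3% of all tested genes. By limma 1 had an unadjusted p under 0.05, against 21.6% of all tested genes. That gene was Rfc4, of the complex that loads the clamp, at 15.1, 11.3 and 13.9 FPKM in CKO and 17.2, 19.7 and 14.5 FPKM in FLOX libraries (difference -0.33, limma adjusted p = 0.231). The groups overlapped for Rfc4. Orc6, of the origin recognition complex, lay apart, at 12.95, 12.7 and 13.4 FPKM in CKO and 13.9, 16.5 and 14.3 FPKM in FLOX libraries. Orc1 was below the filter. Rfc2, the most abundant of the list, averaged 22.3 ± 2.07 FPKM in CKO skin, against 24.5 ± 2.19 FPKM in FLOX skin.

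Of 52 other mitosis genes all were tested and 0 passed, 11 differences were positive and 41 negative, and the median was -0.08. FLOX replicate 3 had the highest value for 38 of the 52 (73.1%), against 19.3% of all tested genes. The signs of this list thus carry the limit given above for the mitotic members. At an unadjusted limma p under 0.05, 1 was higher and 3 were lower in CKO, against 12.6% and 8.94% of all tested genes. Spc25, of the NDC80 kinetochore complex, had the smallest p, at 8.62, 7.13 and 7.61 FPKM in CKO and 9.71, 11.8 and 10.7 FPKM in FLOX libraries (difference -0.42, SE 0.10, limma adjusted p = 0.0756). Pttg1, which encodes securin, had the opposite sign, at 24.9, 26.6 and 26.6 FPKM in CKO and 23.2, 21.9 and 19.3 FPKM in FLOX libraries (difference 0.27, SE 0.09, limma adjusted p = 0.13). The groups lay apart for both, and for 7 of the 52 in all (13.5%), against 27.0% of all tested genes. Cks2, a small CDK-binding protein gene and the most abundant of the list, averaged 34.9 ± 3.77 FPKM in CKO skin, against 41.4 ± 1.08 FPKM in FLOX skin.

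**Figure D5:**
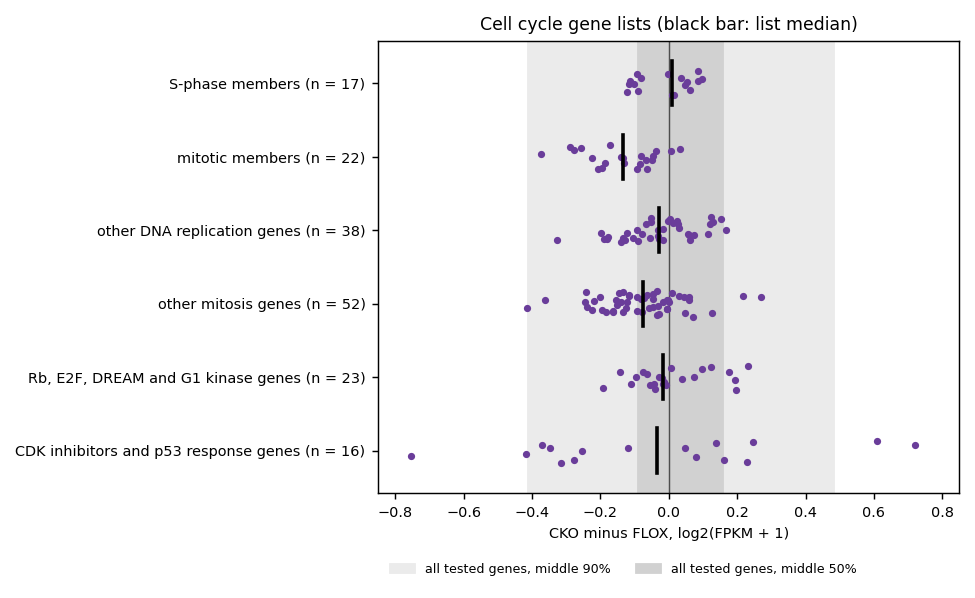
Differences of the genes of 6 cell cycle lists, CKO minus FLOX, on the log2(FPKM + 1) scale (horizontal axis); points are genes, black bars list medians, and shaded bands hold the middle 50% and 90% of all tested genes. The medians of the S-phase and mitotic members are 0.01 and -0.13, and the list of CDK inhibitors and p53 response genes is the one with a member, Gadd45a, at -0.76.

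In a list of genes that restrain the cycle or belong to the p53 response, 1 passed the test. Of 17 CDK inhibitor and p53 response genes 16 were tested and Gadd45a alone passed, with 8 differences positive and 8 negative. Gadd45a, a growth arrest and DNA damage gene whose product binds PCNA, fell in CKO and measured 17.8, 15.2 and 16.8 FPKM in CKO and 29.7, 25.1 and 31.6 FPKM in FLOX libraries, with the groups far apart (difference -0.76, SE 0.11, limma adjusted p = 0.047). This adjusted p was the smallest over all tested genes and was shared with other genes that passed, such as Mcpt8 and Vav1. The limma adjusted p of Gadd45a ran from 0.0303 to 0.162 over 17 alternatives. Gadd45a did not pass without CKO replicate 2 (0.107), FLOX replicate 2 (0.162), FLOX replicate 3 (0.0553) or FLOX replicate 5 (0.102). At an unadjusted p under 0.05, 7 of the 16 were lower and 3 higher in CKO, against 8.94% and 12.6% of all tested genes. The groups lay apart for 9 of the 16, with 7 lower (Gadd45a, Btg1, Cdkn1a, Mdm2, Btg2, Cdkn2d and Gadd45b) and 2 higher (Cdkn1c and Zmat3) in CKO, against 11.4% and 15.5% of all tested genes. The list's median was -0.04.

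Of these, Cdkn1a, the p21 inhibitor and a p53 target, measured 93.5, 112.5 and 112.0 FPKM in CKO and 142.6, 119.9 and 149.7 FPKM in FLOX libraries (difference -0.37, SE 0.11, limma adjusted p = 0.12). Every CKO value of Cdkn1a was below every FLOX value. Cdkn1c, the p57 inhibitor, had the opposite sign, at 20.7, 17.6 and 15.0 FPKM in CKO and 10.3, 11.5 and 11.98 FPKM in FLOX libraries (difference 0.61, SE 0.12, limma adjusted p = 0.0554). It passed without CKO replicate 5 (adjusted p = 0.0346). Skeletal muscle markers were higher and neutrophil markers lower in the same CKO libraries. Adipocyte markers had the CKO order of Cdkn1c, with a mean log2(FPKM + 1) of 5.49, 4.91 and 4.35. In FLOX libraries the adipocyte means were 3.93, 3.74 and 4.45. The part of these markers in the values above was not tested.

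Of 23 Rb, E2F, DREAM and G1 kinase genes all were tested and 0 passed, and the median was -0.02. By limma 1 had an unadjusted p under 0.05, against 21.6% of all tested genes. Tfdp2, a dimer partner of E2F factors, was that gene, at 4.00, 3.97 and 3.75 FPKM in CKO and 2.75, 3.33 and 3.48 FPKM in FLOX libraries (difference 0.23, limma adjusted p = 0.228). E2f2 averaged 2.01 ± 0.15 FPKM in CKO skin, against 1.64 ± 0.29 FPKM in FLOX skin. Cdk4, the kinase partner of the D cyclins and the most abundant of the list, averaged 75.0 ± 3.74 FPKM in CKO skin, against 74.6 ± 1.42 FPKM in FLOX skin, with an interval of -0.16 to 0.17.

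Markers of the other cells in the samples also differed between the groups. Over all tested genes 0.354% passed as higher and 0.600% as lower in CKO. At an unadjusted limma p under 0.05 the shares were 12.6% and 8.94%. All 13 neutrophil markers had lower values in CKO, 7 of them past the threshold, with summed levels of 2824 to 3679 FPKM in CKO and 5385 to 6792 FPKM in FLOX libraries. Most of each sum came from S100a8 and S100a9. S100a8 measured 1420 to 1955 FPKM in CKO and 2247 to 3375 FPKM in FLOX libraries. S100a9 measured 1018 to 1320 FPKM in CKO and 1846 to 2598 FPKM in FLOX libraries. All 15 general leukocyte markers had lower values as well, 2 past the threshold, at 1453 to 2009 FPKM in CKO and 2377 to 2706 FPKM in FLOX libraries. Of 11 basophil markers 10 had lower values, 3 past the threshold, at 112.7 to 202.6 FPKM in CKO and 341.1 to 599.3 FPKM in FLOX libraries. These sums include the cytokine genes Il4, Il6 and Osm, at 125.16, 134.03 and 133.85 FPKM in FLOX replicate 5. In CKO replicate 2 the same genes were at 5.27, 10.93 and 11.09 FPKM. Fcer1a, Il3ra and Ms4a2 of this list differed by -0.09, 0.01 and -0.24, and none of them passed. Of 10 basal keratinocyte markers 9 had higher values, 0 past the threshold, at 5027 to 5541 FPKM in CKO and 4273 to 4999 FPKM in FLOX libraries. Krt14 made up most of each sum, and its groups overlapped, at 3786 to 4141 FPKM in CKO and 3387 to 3837 FPKM in FLOX libraries. At an unadjusted limma p under 0.05, 5 of the 10 were higher and 1 was lower in CKO. Groups lay apart for 6 of the 10, against 27.0% of all tested genes. All 19 tested skeletal muscle markers had higher values, 1 past the threshold, at 1038 to 2674 FPKM in CKO and 409.5 to 812 FPKM in FLOX libraries. Of 10 markers of hyperproliferative epidermis 7 had lower values and 0 passed, at 7306 to 8714 FPKM in CKO and 8132 to 8608 FPKM in FLOX libraries. The 3 of them with an unadjusted p under 0.05 were all lower in CKO, namely the growth factor genes Hbegf (difference -0.92, limma adjusted p = 0.0514) and Areg (-0.53) and the cystatin family gene Stfa1 (-0.42). Its keratin genes Krt6a, Krt6b, Krt16 and Krt17 had differences from -0.12 to 0.10, with overlapping groups. All 10 adipocyte markers had higher values (median difference 0.85), 6 with an unadjusted p under 0.05 and 0 past the threshold, at 493 to 1207 FPKM in CKO and 341 to 623 FPKM in FLOX libraries. Of 10 fibroblast markers 9 had higher values (median 0.37), at 3311 to 4992 FPKM in CKO and 3236 to 4470 FPKM in FLOX libraries, and all 10 endothelial markers had higher values (median 0.14), at 135 to 198 FPKM in CKO and 136 to 156 FPKM in FLOX libraries. None of either list passed. Of the 11 T cell markers measured 9 had higher values in CKO, 3 with an unadjusted p under 0.05 and 0 past the threshold. They summed to 81.7 to 87.0 FPKM in CKO and 75.1 to 81.1 FPKM in FLOX libraries for all 11. Of 18 hair matrix and shaft markers in the table only 2 passed the filter, with sums of 29.0 to 76.3 FPKM in CKO and 60.1 to 109.7 FPKM in FLOX libraries, and Krt31, Krt33a, Krt33b and Krt81 were listed at 0 in all 6. The part of these markers in the cycle genes' values was not tested. Vamp7, the targeted gene, averaged 19.5 ± 0.35 FPKM in CKO skin, against 20.9 ± 0.57 FPKM in FLOX skin, without passing (limma adjusted p = 0.475). Its groups lay apart, and as a level of whole skin it does not check the deletion in basophils.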

How the data were processed

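RNA of mouse skin was purified with oligo(dT) beads and sequenced single-end as DNA nanoballs (labels' protocols). HISAT did the alignment, per the submitters' processing notes. Sources used here name no counter, build, annotation or strand setting. The deposited table holds FPKM made by the authors, rounded to 2 decimals. Reads could not be recovered from such rounded values, so depth is unknown, and no counting interval is given. FPKM sums per library ran from 556412 to 594987. Nothing in the labels makes each library a separate animal, and p-values then reflect only spread among these libraries, perhaps technical.

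The 12994 genes that reached 1 FPKM in 3 or more libraries entered a two-sided limma fit (version 3.58.1, R 4.3.3) of log2(FPKM + 1) using the trend option, and Benjamini-Hochberg adjustment covered all of them. The fit was checked on simulated data of independent genes, with planted changes larger than the members' differences. That check does not show whether differences of the members' size would be found. All 40 members are accounted for; library values are given for the 3 with the smallest p and the most abundant of each role, and values of the wider lists for called genes, the 2 with the smallest p and the most abundant. The members and lists were chosen with earlier results of these data known. Any other gene with values, such as Ccnd2, Ccnd3, Ccna2 and Vamp7, was named after its values were seen.

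By RefSeq annotation (GRCm38.p6), 14 members overlap another gene and 4 (Ccnb1, Ccnb2, Pcna and Tyms) have a pseudogene of the same name, so their values are uncertain to the extent that reads were shared. Alternatives were other pseudocounts, filters, scalings, empirical Bayes settings, library weights, a replicate block and leaving out muscle genes or each library.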

Additional observations from a re-analysis of the deposited data

How the results depend on the processing

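No member passed under any of 17 alternatives; the smallest adjusted p of a member in any of them was 0.0714, for Mki67 with limma. Differences of 15 members were negative and of 3 positive under all alternatives that tested them. The S-phase median ran from -0.08 to 0.07 and the mitotic median from -0.19 to -0.02 when 1 library was left out. The number of genes past the threshold over the whole table was less stable. It was 124 as reported, 1 with no filter, 187 with the filter at 5 FPKM, 0 with quantile normalization (limma, unadjusted p under 0.05: CKO higher 1286, CKO lower 1346), 32 without the trend, 10 with robust fitting, 274 with library weights and 197 without muscle genes. With 1 library left out it ran from 0 to 417, and it was 0 without FLOX replicate 2 (by unadjusted limma p, CKO higher 1119, CKO lower 878) and without FLOX replicate 3 (CKO higher 1436, CKO lower 963). The cause was not tested. With the replicate block 219 genes and 0 members passed, and the mitotic median was -0.03. Numbers 2 and 5 occur in both groups, and same-numbered libraries deviated from their group means with correlations of 0.13 and -0.11, so the numbers were not taken as pairs. Gadd45a also did not pass with no filter (adjusted p = 0.0966), quantile normalization (0.051), no trend (0.0526) or robust fitting (0.05004). FPKM without read counts limits what can be said of low genes such as Cdc6, Cenpf and Cenpe.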
